A study of Homo sapiens with 3 samples.

Results

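Extracellular matrix genes were followed in THP-1 cells, a human monocytic leukemia line, before and after treatment with phorbol myristate acetate (PMA), a phorbol ester that switches on protein kinase C. The set was drawn from genes with a probe set that the array platform gives to a single gene. COL17A1 had no such probe set and is not in it. Every other gene whose symbol begins with COL and a digit was taken in, antisense genes left out. To these came 31 further genes given by name, among them fibronectin, the thrombospondins, the fibrillins, laminin chains, proteoglycans and the enzymes that modify collagen. The set came to 74 genes, 43 of them collagen genes, read by 201 probe sets, out of 19775 genes and 41091 probe sets with a single gene on the array. A probe set is the group of short probes that gives 1 signal value for a transcript.

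Each of 3 conditions had 1 culture of the same line and 1 biotin-labelled array of total RNA. The first was undifferentiated cells with no PMA. The culture labelled PMA 3 days was kept in 200 nM PMA for 24 h, followed by 3 PMA-free days. The culture labelled PMA 8 days was kept in 200 nM PMA for 72 h, followed by 5 PMA-free days. Time in PMA, time after PMA and time in culture thus differed together between the PMA cultures and cannot be told apart. All cells were grown in 10% serum, and a change to 2% serum preceded RNA isolation by 16 h; the labels do not say whether the undifferentiated cells had it. With no replicate culture there was no test and no error between cultures, so each value below is from 1 array, and each comparison is between 2 arrays and not between conditions in general. In bulk RNA, fewer cells with a transcript and less of it per cell cannot be told apart.

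Signals are in array units on a linear scale, and the 3 arrays had the same trimmed mean signal of 1000 units. A floor was set at 149.8 units, the median of all values, below which signals were not ranked. It left 51.4% of probe sets above it on the undifferentiated array, 48.5% on PMA 3 days and 50.1% on PMA 8 days. A gene was read from its brightest probe set and is called higher or lower at a difference of at least 2-fold. Where the dimmer array lay at or below the floor, the fold was taken against the floor and is written "at least"; such a bound moves with the floor. Signals of different genes come from different probes and were not ranked against each other. Of the monocyte-macrophage markers, 6 of 7 on the array were above the floor in undifferentiated cells and 7 of 7 on both PMA arrays, and their summed signal was 118769, 187017 and 151345 in that order of arrays. SPI1 was the marker below the floor, at 25.0 units. The sum hides markers that went different ways. CD14 (850, 34195 and 22449 units), CSF1R and ITGAM were higher at both times, and TYROBP at PMA 3 days. LYZ gave 62439, 36591 and 23243 units and was lower at PMA 8 days. PTPRC was not past 2-fold. SPI1 reached 162 and 175 units on the PMA arrays, just above the floor, so its folds are bounds (at least 1.08-fold and at least 1.17-fold).

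The extracellular matrix is a network that cells secrete around themselves. Collagens are built from 3 chains wound into a helix, and they form fibrils, sheet-like networks of basement membranes, beaded filaments or anchoring fibrils according to type. Fibronectin and other glycoproteins bind collagens and cell-surface integrins, and proteoglycans carry long sugar chains that bind water and growth factors. Prolyl and lysyl hydroxylases modify collagen chains inside the cell, and lysyl oxidases crosslink them outside. Monocytes and macrophages are better known for taking up and degrading matrix, but fibronectin, versican and type VI collagen are among the matrix products described in them.

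Promoters of 56 of the 74 genes were found in RefSeq (GRCh38.p14), as 250 bases before and 50 bases after the gene's start. The 250 bases before the start are shown for FN1 and COL6A3, which had the largest differences among these genes, for VCAN, which was lower, and for ECM1, the gene whose window holds an AP-1 site. Capitals mark matches on either strand to 5 motifs. The AP-1 site, also known as the phorbol ester response element, was searched as TGAGTCA. The cyclic AMP response element (CRE) was searched as TGACGTCA, and the GC box, which Sp1 factors bind, as GGGCGG. The TATA box, which positions the start of transcription, was searched as TATAAA. The E box, bound by helix-loop-helix factors, was searched as CACGTG. Matches to the GC box can overlap each other. The stretches lie at chr2:215436069-215436318 on the minus strand for FN1, chr2:237414165-237414414 on the minus strand for COL6A3, chr5:83471494-83471743 on the plus strand for VCAN and chr1:150507859-150508108 on the plus strand for ECM1, each written 5′ to 3′ in the direction of the gene.
FN1: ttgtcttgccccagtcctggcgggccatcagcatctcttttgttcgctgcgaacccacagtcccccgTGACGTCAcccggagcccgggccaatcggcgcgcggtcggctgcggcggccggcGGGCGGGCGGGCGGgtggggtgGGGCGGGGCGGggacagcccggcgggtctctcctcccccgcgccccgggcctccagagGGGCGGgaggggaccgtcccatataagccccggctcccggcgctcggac
COL6A3: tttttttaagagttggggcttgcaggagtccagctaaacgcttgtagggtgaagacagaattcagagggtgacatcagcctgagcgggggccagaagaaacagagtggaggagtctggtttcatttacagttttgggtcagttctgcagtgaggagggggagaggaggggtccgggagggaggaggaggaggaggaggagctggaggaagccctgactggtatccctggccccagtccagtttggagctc
VCAN: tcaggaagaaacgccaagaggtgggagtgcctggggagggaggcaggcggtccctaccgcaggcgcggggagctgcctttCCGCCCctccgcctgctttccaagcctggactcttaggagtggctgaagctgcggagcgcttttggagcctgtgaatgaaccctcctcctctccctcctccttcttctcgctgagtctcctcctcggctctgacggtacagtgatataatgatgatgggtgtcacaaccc
ECM1: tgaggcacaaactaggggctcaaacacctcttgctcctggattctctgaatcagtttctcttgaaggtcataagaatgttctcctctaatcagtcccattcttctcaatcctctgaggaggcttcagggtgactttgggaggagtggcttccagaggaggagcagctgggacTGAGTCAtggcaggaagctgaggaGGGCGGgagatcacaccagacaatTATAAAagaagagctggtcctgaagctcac

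In FN1 the CRE began 183 bases before the start, and 6 GC box matches followed between 129 and 49 bases before it. COL6A3 held none of the 5 motifs in this stretch, VCAN held a GC box 170 bases before its start, and ECM1 held an AP-1 site, a GC box and a TATA box at 78, 54 and 30 bases. Over the whole windows an AP-1 match was found in 1 of 56 promoters (1.79%), against 4.92% of all 27305 RefSeq promoters of this length. A CRE was found in 1 of 56 (1.79% against 1.98%), a TATA box in 7 (12.5% against 11.95%) and a GC box in 36 (64.3% against 44.6%), and an E box in 1 (FBN2; 1.79% against 7.43%). The median promoter of the set held 67.7% G and C, against 58.3% over all. Among the 14 promoters of genes higher at both PMA times 9 held a GC box, and among the 3 of genes higher at 1 PMA time 3 did. Among the 5 of genes lower at a PMA time 5 did. Among the 19 of genes measured and not past 2-fold 13 did, and among the 15 of genes at or below the floor on every array 6 did. A match in these windows is a match of letters and shows no binding.

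Of the 74 genes, 50 could be compared at PMA 3 days, having a signal above the floor on either array. Of these, 21 were at least 2-fold higher than in undifferentiated cells, against 10.4% of all 13306 genes that could be compared, and 4 were lower, against 10.7%. At PMA 8 days 51 genes could be compared, and 21 were higher (all genes, 9.83%) and 5 lower (8.49%). The median log2 ratio of those compared was 0.63 at PMA 3 days and 0.60 at PMA 8 days, against -0.12 and -0.07 over all genes. At each time 18 of the genes compared were above the floor on 1 of the arrays, so that they could enter in 1 direction alone, and the counts are read with that in mind. The members were also chosen with earlier results of these data known. Their shares are therefore a description, and the contrast with all genes is no independent measure of an excess. Both comparisons use the same undifferentiated array: 19 genes were higher at both times and 3 lower at both. Between the PMA arrays 1 of 47 genes was higher at PMA 8 days (all genes, 1.37%) and 2 were lower (0.958%), with a median log2 ratio of -0.02 against 0.04. At a 3-fold call 18 genes were higher (all genes, 5.56%) and 3 lower (3.9%) at PMA 3 days, 16 higher (5.13%) and 3 lower (3.05%) at PMA 8 days, and 1 higher (0.107%) and 1 lower (0.046%) between the PMA arrays. The 22 genes at or below the floor on every array by every probe set were BGN, LUM, LAMA4, THBS2, COL2A1, COL3A1, COL4A3, COL4A5, COL4A6, COL5A1, COL6A5, COL6A6, COL8A1, COL9A1, COL11A1, COL14A1, COL19A1, COL20A1, COL21A1, COL25A1, COL26A1 and COL28A1.

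**Figure D1:**
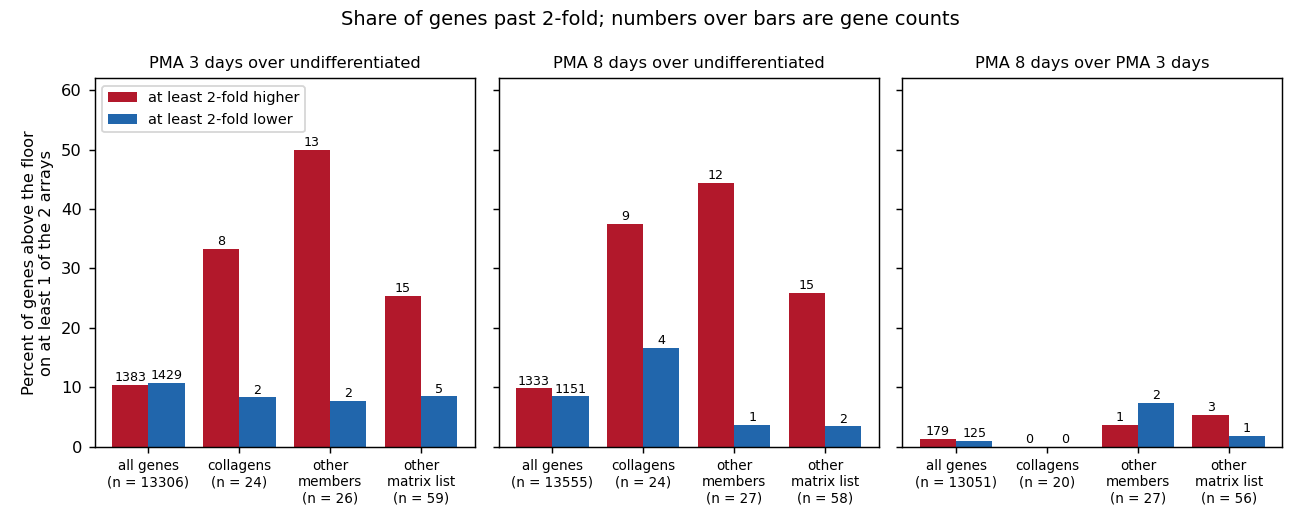
Percent of genes at least 2-fold higher (red) or lower (blue) in each of the 3 comparisons, among genes with a signal above the floor on either array compared; numbers over the bars are gene counts and there are no error bars because each condition had 1 array. Collagens (8 of 24 higher at PMA 3 days) and the other members (13 of 26) had larger red bars than all genes against undifferentiated cells, and few genes of any list were past 2-fold between the PMA arrays. The members and lists were chosen with earlier results of these data known.

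Among the matrix glycoproteins 5 of the 6 compared were higher at PMA 3 days (all genes, 10.4%) and 3 of 7 at PMA 8 days (9.83%). FN1 (fibronectin, the glycoprotein that links integrins to collagen) gave 333, 35009.7 and 45488 units in undifferentiated, PMA 3 days and PMA 8 days cells. Both PMA arrays were far above the undifferentiated one, by 105-fold and 137-fold, and they differed from each other by 1.30-fold. Of its 7 probe sets, 4 were between 32371 and 45488 units on the PMA arrays, with undifferentiated signals of 93.9 to 333. At PMA 3 days 4 of the 6 above the floor passed 2-fold. The other 3 reached 203 to 609 units at PMA 8 days, and 2 of them were past 2-fold at that time against undifferentiated cells; the brightest of the 3 was also 2.15-fold higher at PMA 8 days than at PMA 3 days. SPARC (osteonectin, a collagen-binding protein) gave 106, 4144 and 2114 units, at least 27.7-fold and at least 14.1-fold higher. It was thus highest at PMA 3 days, and 1.96-fold lower at PMA 8 days than there. Its second probe set gave 9.81, 443 and 227 units, with nearly the same log2 ratio between the PMA arrays (-0.96 against -0.97), but its bound at PMA 8 days was under 2-fold (log2 ratio 0.60).

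THBS1 (thrombospondin 1, which activates latent TGF-beta and binds CD36) stood out as a gene high on a single array. It gave 1111, 4891 and 1548 units, 4.40-fold higher at PMA 3 days, 1.39-fold above undifferentiated cells at PMA 8 days, and 3.16-fold lower at PMA 8 days than at PMA 3 days. Of its 4 probe sets above the floor on a PMA array, 3 were at least 2-fold higher at PMA 3 days than in undifferentiated cells, and the same 3 at least 2-fold lower at PMA 8 days than at PMA 3 days. FBN1 (fibrillin 1 of microfibrils) gave 178, 1595 and 1232 units, 8.94-fold and 6.91-fold higher, and both of its probe sets above the floor were past 2-fold at each time. FBN2, the related fibrillin 2, gave 4341, 3276 and 3335 units and was not past 2-fold (log2 ratios -0.41 and -0.38). ECM1 (extracellular matrix protein 1, a secreted glycoprotein) gave 2452, 5105 and 4128 units, 2.08-fold higher at PMA 3 days and 1.68-fold at PMA 8 days. Scaling the arrays to their poly-A labelling controls took ECM1 at PMA 3 days below the threshold (log2 ratio 0.77). TNC (tenascin C) reached 152 units at PMA 8 days, just above the floor, and THBS2 (thrombospondin 2) was at or below the floor on every array.

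**Figure D2:**
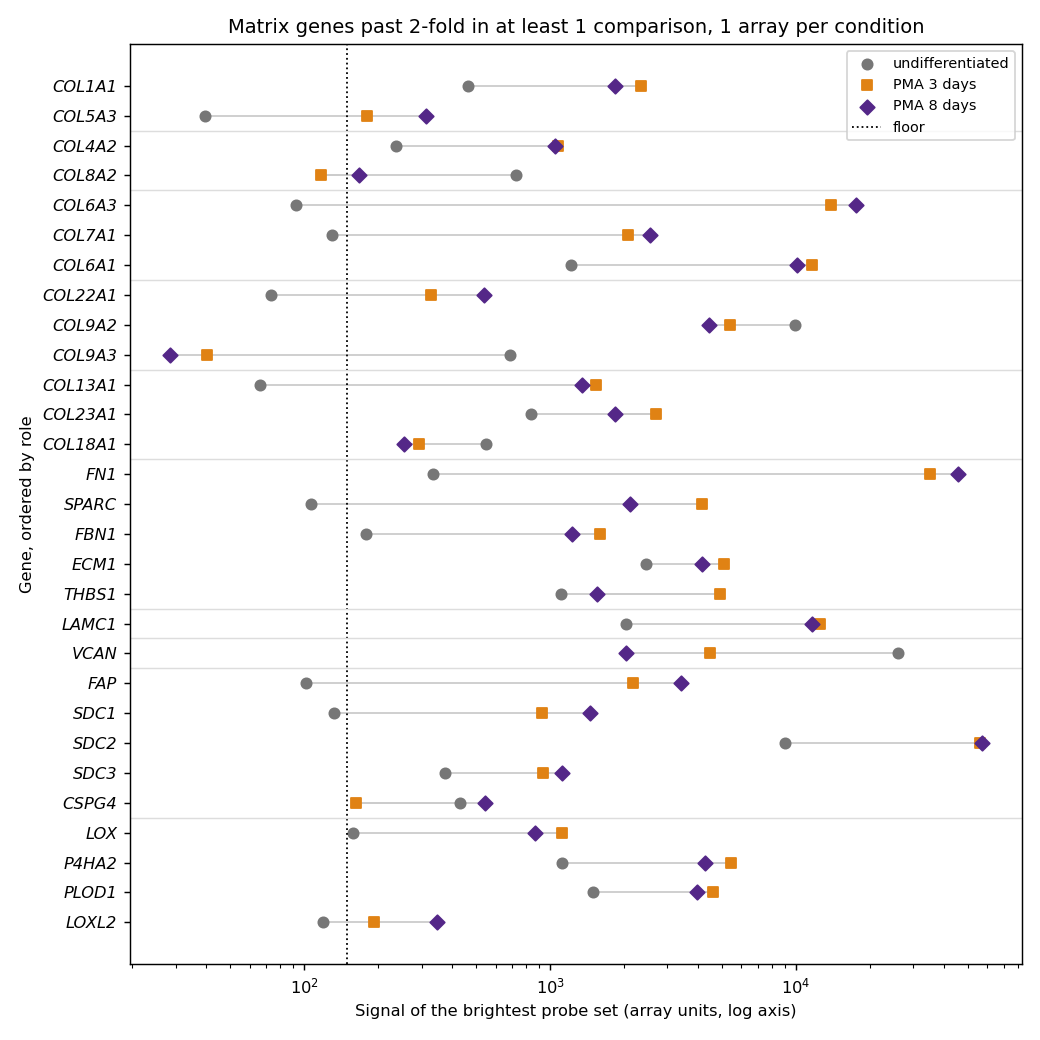
Signal of the brightest probe set (log axis, array units) on the undifferentiated (grey circle), PMA 3 days (orange square) and PMA 8 days (purple diamond) arrays for the 29 genes past 2-fold in at least 1 comparison, ordered by role; the dotted line is the floor of 149.8 units and each point is 1 array. FN1 and COL6A3 span more than any other gene shown, and VCAN, COL9A2, COL9A3, COL8A2 and COL18A1 have their grey point at the right.

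Among the collagens, 8 of the 24 that could be compared at PMA 3 days were higher and 2 lower (all genes, 10.4% and 10.7%), and at PMA 8 days 9 of 24 were higher and 4 lower (9.83% and 8.49%). The 2 lower at PMA 3 days are 8.33% of the collagens compared, near the share over all genes. Type VI collagen, which forms beaded filaments next to basement membranes, had the largest difference. COL6A3 (the alpha 3 chain) gave 92.5, 13938 and 17588 units, at least 93.0-fold and at least 117-fold higher, by the 1 probe set it has. COL6A1 (the alpha 1 chain) gave 1216, 11576 and 10063 units, 9.52-fold and 8.28-fold higher. At PMA 3 days 3 of its 4 probe sets above the floor were past 2-fold. At PMA 8 days 3 of 5 were, and their log2 ratios ran from -0.27 to 3.05. COL6A2 (the alpha 2 chain, which assembles with the other two) gave 192, 323 and 203 units and was not past 2-fold. Its second probe set gave 76.1, 397 and 239 units, at least 2.65-fold higher at PMA 3 days (log2 ratio 1.41) but not at PMA 8 days (0.67). COL7A1 (the collagen of anchoring fibrils) gave 130, 2066 and 2548 units, at least 13.8-fold and at least 17.0-fold higher, and its second probe set passed 2-fold too, with log2 ratios of 2.01 and 2.69.

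COL13A1, a collagen that spans the plasma membrane, gave 66.2, 1534 and 1348 units, at least 10.2-fold and at least 9.0-fold higher. Its other probe sets were much flatter: 1 gave 194, 311 and 276 units and the other 205, 207 and 195. COL23A1, another transmembrane collagen, gave 834, 2692 and 1843 units, 3.23-fold and 2.21-fold higher. COL22A1, a collagen of tissue junctions, gave 73.1, 326 and 540 units, at least 2.18-fold and at least 3.60-fold higher. A second probe set of COL22A1 was at 229, 208 and 170 units (log2 ratios -0.14 and -0.43), and at PMA 3 days the call was also lost with a floor at the 60th percentile. COL5A3 (a minor fibrillar chain) gave 39.5, 180 and 311 units and passed 2-fold at PMA 8 days alone, at 2.08-fold as a lower bound, which a floor of 261 units took to a log2 ratio of 0.25.

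The main fibrillar collagen of connective tissue gave no uniform picture. COL1A1 (type I, alpha 1 chain) gave 464, 2337 and 1828 units by its brightest probe set, 5.03-fold and 3.94-fold higher. The next probe set gave 601, 459 and 567 units (log2 ratios -0.39 and -0.08) and was not past 2-fold. The other COL1A1 probe sets were near or below the floor, at 131, 156 and 145 units, at 162, 89.7 and 87.5, and at 26.1, 114 and 75.0. The median over the COL1A1 probe sets was -0.03 and -0.08, and it takes in bounds against the floor. The higher calls on COL1A1 thus rest on the brightest probe set. COL1A2, whose product pairs with that of COL1A1 in type I collagen, gave 157, 10.1 and 47.1 units, just above the floor on the undifferentiated array and below it on both PMA arrays. COL3A1 and COL5A1 were at or below the floor on every array. COL5A2 (158, 182 and 263 units), COL11A2 (417, 459 and 314) and COL27A1 (893, 568 and 635) were above it on all 3 and not past 2-fold.

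COL4A1 and COL4A2 encode the chains of the common basement membrane collagen and are transcribed in opposite directions from start sites 127 bases apart in RefSeq. The 126 bases between them, at chr13:110307158-110307283 of GRCh38.p14, are shown on the COL4A2 strand, 5′ to 3′, because the values of the neighbours differed; capitals mark a GC box (GGGCGG) that either gene has upstream of its start.
COL4A1-COL4A2: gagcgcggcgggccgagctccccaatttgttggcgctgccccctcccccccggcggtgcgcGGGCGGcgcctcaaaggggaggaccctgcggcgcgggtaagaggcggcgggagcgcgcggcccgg
COL4A2 gave 237, 1075 and 1048 units, 4.54-fold and 4.43-fold higher. COL4A1 gave 2198, 1110 and 1233 units, with log2 ratios of -0.99 and -0.83, short of 2-fold lower. The second probe set of each was flatter, at 87.8, 169 and 174 units for COL4A2 (log2 ratios 0.17 and 0.22) and 427, 473 and 531 units for COL4A1 (0.15 and 0.31). The opposite directions therefore rest on the brightest probe sets. COL4A4 reached 214 and 238 units on the PMA arrays from 72.0, at least 1.43-fold and at least 1.59-fold, and COL4A3, COL4A5 and COL4A6 were at or below the floor throughout.

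**Figure D3:**
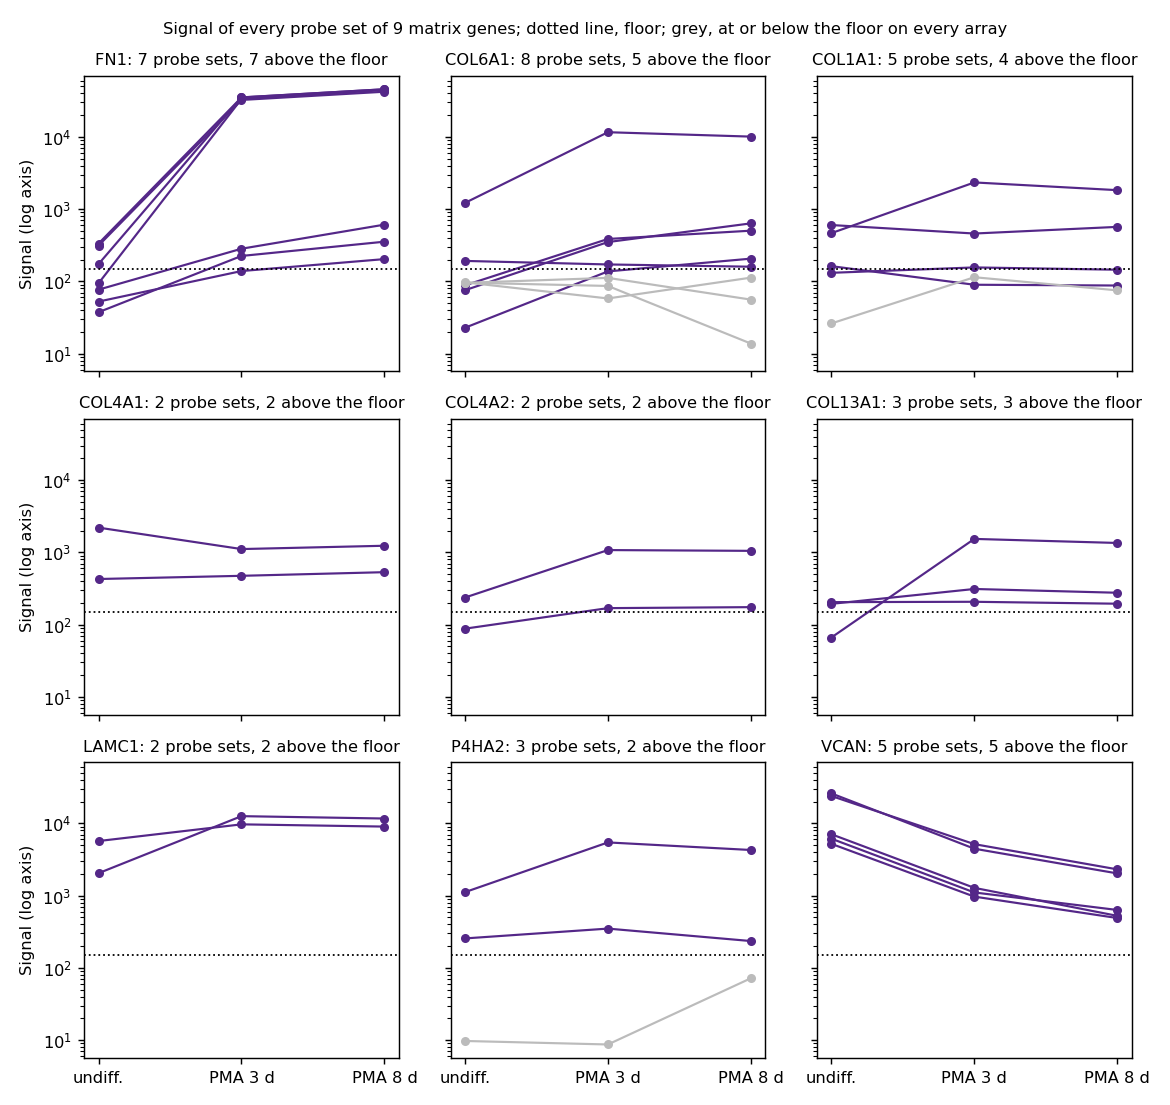
Signal (log axis, array units) of every probe set of 9 genes on the undifferentiated, PMA 3 days and PMA 8 days arrays, 1 line per probe set; the dotted line is the floor and grey lines never exceed it. The 5 VCAN lines run down together, while COL1A1, COL13A1, LAMC1 and P4HA2 each have a line with a steeper slope than the others.

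Some collagens were lower after PMA. COL9A3 (type IX, alpha 3 chain, of cartilage fibril surfaces) gave 684, 40.4 and 28.5 units, at least 4.57-fold lower at both times. COL9A2, which encodes the alpha 2 chain of the same collagen, gave 9866, 5397 and 4432 units, 1.83-fold and 2.23-fold lower. The other COL9A2 probe set gave 1660.3, 791 and 622 units and passed 2-fold at both times (log2 ratios -1.07 and -1.42). COL9A1, the remaining chain, was at or below the floor on every array. COL8A2 (type VIII, a network collagen) gave 725, 117 and 167 units, at least 4.84-fold and 4.35-fold lower, and both of its probe sets passed 2-fold at both times. COL18A1 (the basement membrane collagen that holds endostatin) gave 550.2, 294 and 254 units, 1.87-fold and 2.17-fold lower; its other probe set passed 2-fold at both times (log2 ratios -1.16 and at most -1.27). After quantile normalization COL18A1 at PMA 8 days was just short of the threshold (log2 ratio -0.99). COL15A1 (282, 48.3 and 82.4 units), COL12A1 (259, 138 and 127) and COL24A1 (259, 70.9 and 78.4) were above the floor in undifferentiated cells only by their brightest probe sets, with bounds under 2-fold. Another COL12A1 probe set went the other way, at 70.7, 162 and 223 units. COL10A1 reached 231 units on PMA 3 days and COL16A1 195 on PMA 8 days, each on that array only.

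Proteoglycans went in both directions. VCAN (versican, the large chondroitin sulfate proteoglycan of monocytes) gave 25969.9, 4456 and 2028 units, 5.83-fold lower at PMA 3 days and 12.8-fold lower at PMA 8 days, and 2.20-fold lower at PMA 8 days than at PMA 3 days. All 5 of its probe sets were lower at both times, with log2 ratios between -2.54 and -2.21 at PMA 3 days and between -3.75 and -3.28 at PMA 8 days. Between the PMA arrays 3 of the 5 passed 2-fold, and with poly-A control scaling the brightest did not (log2 ratio -0.84). HSPG2 (perlecan, of basement membranes; 365, 569 and 359 units), AGRN (agrin; 619, 508 and 547) and DCN (decorin; 147, 159 and 228) were not past 2-fold in any comparison, and BGN (biglycan) and LUM (lumican) were at or below the floor on every array.

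The syndecans, heparan sulfate proteoglycans that span the plasma membrane, differed from each other. SDC2 gave 8999.8, 56099 and 57043 units, 6.23-fold and 6.34-fold higher, and all 3 of its probe sets were past 2-fold at both times (log2 ratios 2.64 to 3.33). SDC1 gave 132, 924 and 1448 units, at least 6.17-fold and at least 9.66-fold higher, with both probe sets past 2-fold. SDC3 gave 374, 932 and 1121 units, 2.49-fold and 3.00-fold higher; its second probe set reached 156 units on PMA 8 days, just above the floor. SDC4 gave 1086, 1097 and 1169.9 units, with log2 ratios of 0.01 and 0.11. CSPG4 (the chondroitin sulfate proteoglycan NG2) had a dip: it gave 428, 162 and 546 units, 2.64-fold lower at PMA 3 days, 1.27-fold above undifferentiated cells at PMA 8 days, and 3.37-fold higher at PMA 8 days than at PMA 3 days. The second CSPG4 probe set, at 245, 60.4 and 267 units, passed 2-fold in neither comparison: it was at least 1.64-fold lower at PMA 3 days and at least 1.78-fold higher between the PMA arrays. With a floor at the 60th percentile the PMA 3 days call on CSPG4 was lost (log2 ratio -0.71).

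FAP (fibroblast activation protein, a cell-surface protease that cuts denatured collagen) gave 102, 2168 and 3422 units, at least 14.5-fold and at least 22.8-fold higher. FAP is best known from activated fibroblasts, so markers of other cell types were read on the same arrays. Of 12 fibroblast or stromal markers outside the set, 4 were above the floor in undifferentiated cells and 6 on each PMA array, and their summed signal was 4266, 4370 and 5392 units. PDGFRA, a growth factor receptor of stromal cells, gave 8.48, 923 and 961 units, and PDPN (podoplanin) gave 117, 256 and 378. ACTA2 (smooth muscle actin) gave 509, 1123 and 1305 units, and THY1 gave 215, 289 and 495. PDGFRA and ACTA2 were past 2-fold higher at both times, and PDPN and THY1 at PMA 8 days. TWIST1 gave 2773, 1317 and 1693 units and TWIST2 gave 411, 210.4 and 185, past 2-fold lower at PMA 3 days and at PMA 8 days respectively. PDGFRB, DPT, PRRX1, TCF21, MEOX2 and NGFR were at or below the floor on every array. The part of other cell types in the matrix signals was not tested. Of 6 endothelial markers 1, 1 and 2 were above the floor, PECAM1 being the bright one, and of 6 epithelial markers 2, 1 and 2.

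Of the basement membrane glycoproteins, LAMC1 (the laminin gamma 1 chain) gave 2042, 12572 and 11657 units, 6.16-fold and 5.71-fold higher. The second LAMC1 probe set gave 5687, 9679.7 and 9015 units, higher by log2 ratios of 0.77 and 0.66 and so not past 2-fold. LAMB1 (the beta 1 chain) gave 155, 244 and 240.1 units (log2 ratios 0.66 and 0.63), and LAMA4 was at or below the floor on every array. NID1 (nidogen 1, which joins laminin to type IV collagen) gave 8657, 6345 and 4780.0 units, with log2 ratios of -0.45 and -0.86, in the other direction from LAMC1.

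The enzymes that modify collagen were higher in 3 of 7 cases at PMA 3 days (all genes, 10.4%) and 4 of 7 at PMA 8 days (9.83%). None of the 7 was lower, where the share over all genes, 10.7% and 8.49%, would give less than 1. P4HA2 (a prolyl 4-hydroxylase subunit) gave 1116, 5442 and 4277 units, 4.88-fold and 3.83-fold higher. The other P4HA2 probe set above the floor gave 255, 349 and 235 units (log2 ratios 0.45 and -0.12) and was not past 2-fold. The calls on P4HA2 thus rest on the brightest probe set. P4HA1, the other subunit of that kind in the set, gave 13736, 15363 and 15091 units and was within 1.12-fold on all arrays. PLOD1 (lysyl hydroxylase 1) gave 1495, 4580.45 and 3964 units, 3.06-fold and 2.65-fold higher. PLOD2 (lysyl hydroxylase 2) gave 2253, 1383 and 2104 units, with log2 ratios of -0.70 and -0.10. LOX (lysyl oxidase) gave 158, 1113 and 865 units, 7.05-fold and 5.47-fold higher from a level just above the floor. Its second probe set passed 2-fold at PMA 3 days (log2 ratio 1.28) but not at PMA 8 days (0.70). LOXL2 gave 119, 193 and 346 units, at least 2.31-fold higher at PMA 8 days, a bound lost with a floor of 261 units (log2 ratio 0.41). LOXL3 gave 837, 1577 and 868 units, 1.88-fold above undifferentiated cells at PMA 3 days and 1.04-fold at PMA 8 days.

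**Figure D4:**
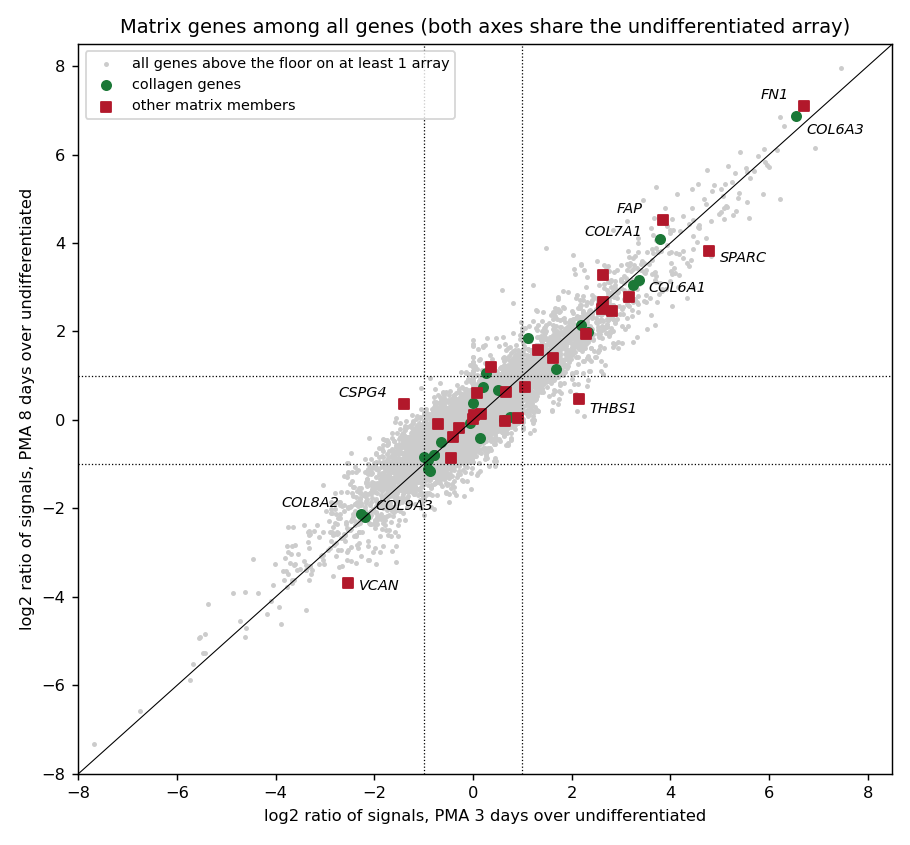
log2 ratio of signals at PMA 8 days over undifferentiated (vertical) against PMA 3 days over undifferentiated (horizontal) for genes with any array above the floor; grey points are all genes, green circles collagens and red squares the other members, and dotted lines mark 2-fold. Both axes share the undifferentiated array, so the spread along the diagonal is not independent evidence; THBS1 and SPARC lie below it and CSPG4 above it.

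The difference between the PMA cultures was smaller for most of these genes. The range over the 47 genes compared ran from a log2 ratio of -1.66 (THBS1) to 1.75 (CSPG4), and VCAN (-1.14) was the third gene past 2-fold. SPARC (-0.97) and LOXL3 (-0.86) were next on the lower side, and LOXL2 (0.84), COL5A3 (0.79) and COL22A1 (0.73) on the higher side. None of the 20 collagens compared was past 2-fold, near what the shares over all genes (1.37% higher, 0.958% lower) would give for so few genes. The 12 poly-A labelling controls, RNAs added in fixed amounts, had a median log2 ratio of -0.28 in this comparison and 0.29 at PMA 3 days over undifferentiated. Scaling to them moved the median of all genes between the PMA arrays from 0.04 to 0.31 and that of the matrix genes from -0.02 to 0.26. LOXL2, COL5A3 and COL22A1 then passed 2-fold (log2 ratios 1.14, 1.08 and 1.02) and VCAN no longer did. THBS1 and CSPG4 kept their calls under that scaling.

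**Figure D5:**
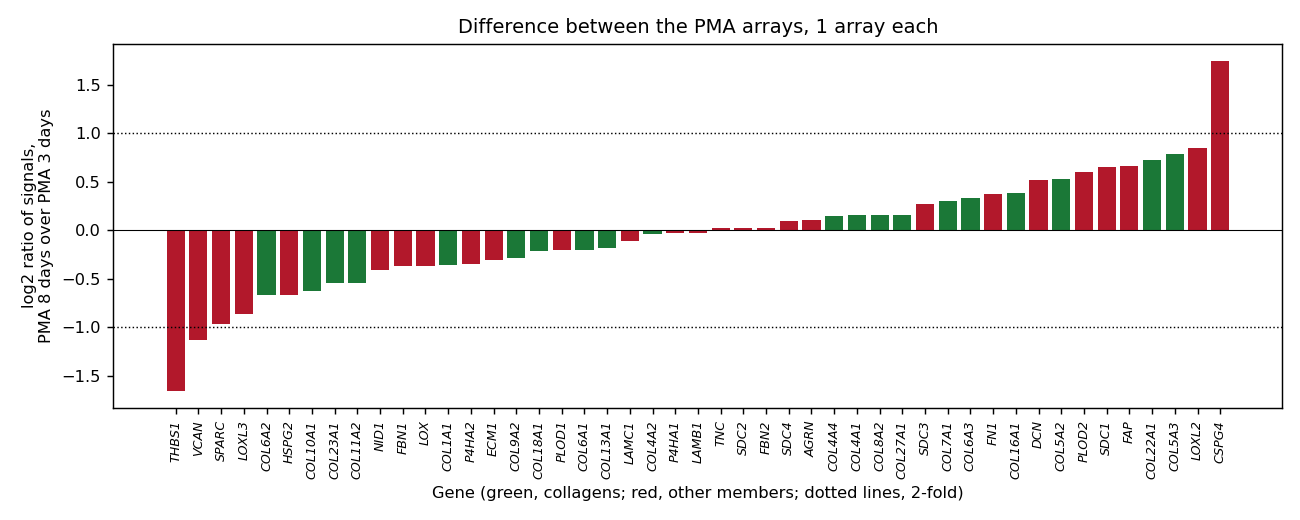
log2 ratio of signals at PMA 8 days over PMA 3 days for the 47 matrix genes with a PMA array above the floor, sorted; green bars are collagens, red bars the other members, and dotted lines mark 2-fold. THBS1 and VCAN pass the lower line and CSPG4 the upper one; each bar is a ratio of 2 arrays with no error.

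Agreement between probe sets of a gene gave 1 measure of how far a ratio depends on the probes read. Of the 25 genes past 2-fold at PMA 3 days, 18 had several probe sets above the floor on an array compared. In 8 of them every such probe set passed 2-fold the same way, and in none did a probe set pass it the other way. At PMA 8 days the numbers were 26, 19, 8 and 0. The pooled SD of log2 ratios between probe sets of a gene, over 17 genes with several measured on both arrays, was 0.93 at PMA 3 days and 0.88 at PMA 8 days, and 0.29 over 24 genes between the PMA arrays. COL6A3 and FAP have 1 probe set and are not in this SD. Against undifferentiated cells COL7A1, FBN1, SPARC and SDC1 are not in it either, lacking several probe sets above the floor on both arrays. FN1 entered at PMA 3 days with 3 probe sets (SD 0.55). Its 6 probe sets above the floor on either array ran from a log2 ratio of 0.58 to 7.80, so the SD leaves out part of the disagreement. The SD holds no error of culture or labelling, so it is no measure of how far cultures of a condition would differ. The 12 poly-A labelling controls ranged in log2 ratio from -0.28 to 0.68 at PMA 3 days, from -0.54 to 0.25 at PMA 8 days and from -0.76 to 0.02 between the PMA arrays.

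A list of 88 other matrix genes on the array, also chosen with earlier results of these data known, was read in the same way. At PMA 3 days 15 of the 59 compared were higher and 5 lower (all genes, 10.4% and 10.7%), with a median log2 ratio of 0.12. At PMA 8 days 15 of 58 were higher and 2 lower (9.83% and 8.49%), with a median of 0.00. Of 13 genes of collagen folding and processing compared, 3 were higher at PMA 3 days (all genes, 10.4%) and 4 at PMA 8 days (9.83%). None was lower (all genes, 10.7% and 8.49%), which is near what these shares would give for so few genes. The remaining 10 and 9 were not past 2-fold. Of the higher ones, LOXL4 (a lysyl oxidase) gave 168, 6519 and 4190.0 units, log2 ratios 5.28 and 4.64. P3H2 (a prolyl 3-hydroxylase) gave 171, 2606 and 3552 units (3.93 and 4.38), and PCOLCE2 (an enhancer of procollagen cleavage) 141, 3538 and 3076 (at least 4.56 and 4.36). SPP1 (osteopontin) gave 5195, 46906 and 60401 units (3.17 and 3.54), and LTBP2 (a microfibril protein) 100.01, 1885 and 2035 (at least 3.65 and 3.76). LAMB3, a laminin chain, gave 228, 1731 and 2407 units (2.92 and 3.40). THBS4 was the largest on the lower side, at 1060.2, 128 and 145 units (log2 ratio of -2.82 or below at both times). The glypicans, heparan sulfate proteoglycans with a lipid anchor, split: GPC4 gave 797, 1654 and 3367 units, GPC3 2148, 333 and 562, and GPC6 777, 300.1 and 666. GPC5 gave 104, 513 and 230.3 units, at least 3.43-fold higher at PMA 3 days. Between the PMA arrays GPC4 and GPC6 were higher at PMA 8 days (log2 ratios 1.03 and 1.15) and GPC5 lower (-1.16). Of the receptors that bind or take up collagen, 2 of 10 compared were higher at PMA 3 days and 2 of 9 at PMA 8 days (all genes, 10.4% and 9.83%). These were CD36 (6366, 29478 and 26126 units) and MRC1 (35.4, 544 and 392) at both times. No receptor was lower (all genes, 10.7% and 8.49%), again near what the shares would give for so few genes.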

How the data were processed

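Total RNA of 3 THP-1 cultures was measured on 1 array each. The deposited intensities are MAS5 signals, per the submitters' processing notes; its version and settings are not given in the sources used here. Their linear scale and common trimmed mean, with 2% left out at either end, were read from the values. Detection calls were not used here. Of 54675 probe sets 62 were controls; of the rest, 41091 had 1 gene in the platform table, 1801 several and 11721 none. All 74 members matched RefSeq by Entrez ID and kept their symbols.

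Each gene was read from the probe set with the highest mean over the arrays. Signals were raised to the floor (149.8, the 50th percentile of all values) before log2 ratios, and genes with no array above it were left out of a comparison. Calls were made at 2-fold; no test is possible with 1 array per group. Named genes were all members, by role: those past 2-fold in any comparison with all 3 signals, others above the floor by value, range or count, and those with every probe set at or below it by name. Where probe sets above the floor fell on different sides of 2-fold, this is given. Alternatives were floors at the 40th and 60th percentiles (94.5 and 261 units), the second-brightest probe set, the median of probe sets, quantile normalization, poly-A control scaling, median centring and a 3-fold call. The members and lists were chosen with earlier results of these data known. The steps that make the calls were also run on simulated data. How often the calls on these arrays are wrong was not tested. Python 3.11.15, numpy 2.4.6, pandas 2.3.3 and matplotlib 3.10.9 were used.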

Additional observations from a re-analysis of the deposited data

How the results depend on the processing

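With 1 array per condition, culture, labelling and hybridisation differences are in every value, and the number of arrays limits the precision. No paired analysis was possible because each group held 1 sample. Of the calls on single genes, 17 of 25 at PMA 3 days, 14 of 26 at PMA 8 days (both over undifferentiated) and 1 of 3 between the PMA arrays (THBS1) were kept under every alternative that gave a value, the 3-fold call apart. The second-brightest probe set gave a value for 18 of these 25 genes and 19 of these 26, and kept 11 and 10 of those calls. Calls on genes with no such value, among them COL6A3 and FAP with 1 probe set each, did not face that alternative. The median log2 ratio of the genes compared ranged from 0.21 to 0.99 at PMA 3 days and from 0.17 to 0.69 at PMA 8 days. Between the PMA arrays it was -0.02 with the main settings and 0.26 under poly-A control scaling, and its values under the other alternatives are not given here. By the second-brightest probe set, which left 30 genes, 10 were higher at PMA 3 days, 6 at PMA 8 days and 0 between the PMA arrays (all genes, 9.70%, 9.08% and 1.37%). Under scaling to the poly-A controls, where the median of all genes shifted too, 7 were lower at PMA 3 days (all genes, 18.0%), and 4 were higher (4.03%) and 1 lower (0.322%) between the PMA arrays. With the floor at the 40th percentile 8 genes were lower at PMA 8 days (all genes, 8.96%) and 2 higher between the PMA arrays (2.49%). At a 3-fold call 3 were lower at PMA 8 days (all genes, 3.05%) and 1 between the PMA arrays (0.046%). The sign of the log2 ratio changed for COL1A1 by the second-brightest probe set (-0.39 and -0.0849) and by the median of probe sets (-0.029 and -0.0849). By the second-brightest probe set it also changed for COL22A1 (-0.14 and -0.43) and for P4HA2 at PMA 8 days (-0.12). None of these values was past 2-fold lower. Other probes are read there, and which of them reads the transcript was not tested. Poly-A control scaling took the share of higher genes among all calls from 49.2% to 29.8% at PMA 3 days and from 58.9% to 92.6% between the PMA arrays.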
